A study of Rattus norvegicus with 31 samples.

Results

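One probe, named Ldhb by the array, divided the 31 arrays of this rat blood study into 13 Ldhb-low and 18 Ldhb-high arrays. The arrays were chosen by the deposited log10 ratio of that probe, with all arrays below -0.35 in the Ldhb-low class and all others in the Ldhb-high class. Ldhb was therefore selected on its own values, and its levels are given as a description with no test. All other genes, and their positions, were not used in the choice and were compared between the classes.

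Each array held, in red (Cy5), the RNA of 1 sample of blood mononuclear cells (PBMC), which are mainly lymphocytes with some monocytes. Green (Cy3) held the same reference pool, made from randomly picked samples of all 3 groups, on every array, and dyes were not swapped. The classes cut across the dietary groups. The protocol names female and male offspring. The CR group (11 samples) were offspring of dams fed 20% less on days 1 to 12, suckled normally. The CR-L group (13) were offspring of such dams that also received leptin while suckling until postnatal day 21, in daily doses from 1.0 to 43.8 ng, set at 5 times what the milk supplied. The WT group (7) were offspring of unrestricted dams and were called controls in the protocol. All had eaten chow freely for 4 months before blood was drawn. In all, 16 rats had been mated, and sex and litter were not given for each sample, so some samples may share a dam and the p-values may be too small.

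Lactate dehydrogenase is a tetramer that interconverts pyruvate and lactate. Its B subunit, encoded by Ldhb, predominates in tissues that oxidise lactate, such as heart, and is also made by lymphocytes and red cells. The A subunit, encoded by Ldha, predominates in glycolytic tissue such as skeletal muscle. In bulk RNA, fewer cells of a type and less RNA per cell cannot be told apart.

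The array held 1 probe named Ldhb, of 60 bases, at chr4:180061921-180063949 on the minus strand of the rat build rn4. These positions span 2029 bases, more than the probe's length, so the probe joins stretches that lie apart in the genome. It is shown with the probes of the other lactate dehydrogenase genes measured, since the finding rests on this 1 sequence. The longest run of bases shared with the Ldhb probe was 5 for Ldha, 7 for Ldhc, which is known from testis, and 6 for Ldhd, which encodes the D-lactate enzyme.
Ldhb: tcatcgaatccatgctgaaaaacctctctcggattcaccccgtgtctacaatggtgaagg
Ldha: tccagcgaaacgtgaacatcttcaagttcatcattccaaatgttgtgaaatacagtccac
Ldhc: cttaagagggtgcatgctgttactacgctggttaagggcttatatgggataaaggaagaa
Ldhd: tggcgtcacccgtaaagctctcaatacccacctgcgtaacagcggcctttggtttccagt

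Ldhb had 2 separate levels. The log10 ratio of sample over pool ran from -0.911 to -0.634 in the Ldhb-low arrays (median -0.749), against -0.199 to 0.306 in the Ldhb-high arrays (median 0.217). No array lay between CR replicate 10, the last inside the threshold at -0.634, and CR-L replicate 11, the first outside it at -0.199. That array stood between the levels, since the other 17 Ldhb-high arrays began at 0.127.

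The red channel carried the split. Red Ldhb intensity ran from 542.2 to 1040 in the Ldhb-low arrays (median 755), against 2125 to 9858 in the Ldhb-high arrays (median 6610). Without CR-L replicate 11, the lowest Ldhb-high array had 5138. The green intensity of the pool ran from 2124 to 3014 in the Ldhb-low arrays and from 2068 to 2761 in the Ldhb-high arrays, so the pool's ranges overlapped on the same probe. The probe was well above background on all 31 arrays. The authors' deposited log2 table, which follows the red channel, had Ldhb at 9.03 to 10.02 in the Ldhb-low arrays and at 11.25 to 13.09 in the Ldhb-high arrays, again without overlap.

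After background correction and loess, the log2 ratio of Ldhb averaged -2.31 ± 0.30 in the Ldhb-low arrays (SD, n = 13) and 0.64 ± 0.34 in the Ldhb-high arrays (SD, n = 18). The difference was -2.95, a fold of 7.73 between the means. Leaving out CR-L replicate 11 gave -3.02 and a fold of 8.14. The Ldhb-low arrays spread over 1.06 on this scale, and the 17 upper Ldhb-high arrays over 0.56. CR-L replicate 11 lay 1.11 above the highest Ldhb-low array and 1.04 below the lowest of those 17. By its SD over the arrays, 1.51, Ldhb ranked 7 of 22244 features. A feature here is 1 gene, or 1 probe with no gene symbol.

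**Figure D1:**
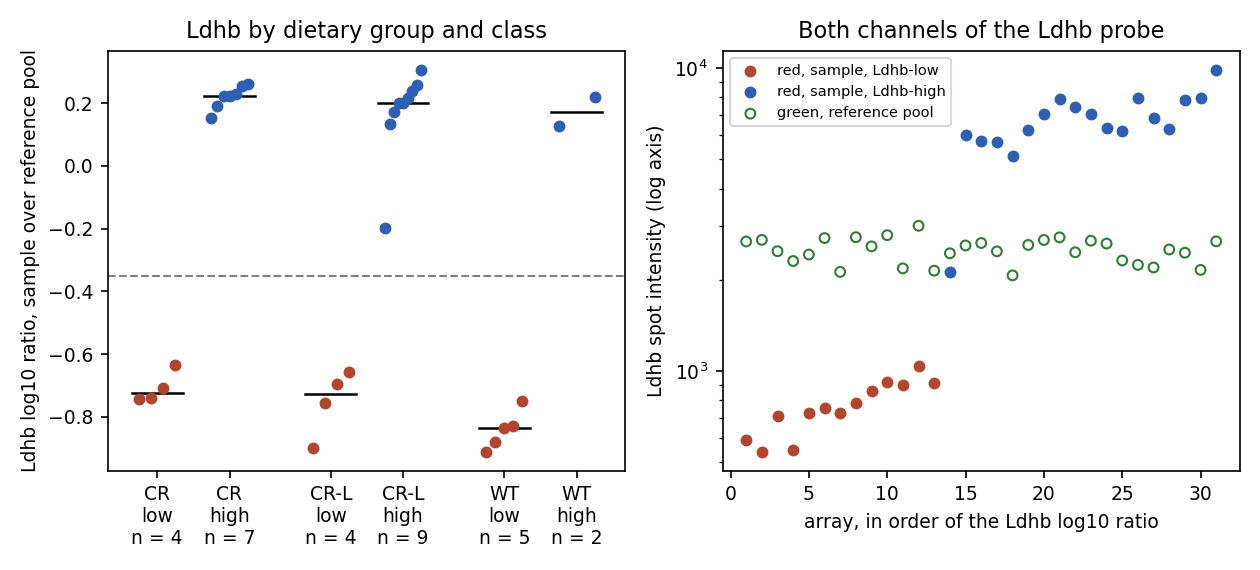
Left, the log10 ratio of Ldhb on each of the 31 arrays (points) with the median (bar), by dietary group and class; the dashed line is the threshold of -0.35. Right, red (sample) and green (reference pool) intensity of the Ldhb probe on a log axis, arrays ordered by their ratio: the red points jump from at most 1040 to at least 5138 with CR-L replicate 11 alone between, and the green points stay between 2068 and 3014.

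Both levels were found in every dietary group. The Ldhb-low class held CR replicates 5, 6, 9 and 10, CR-L replicates 2, 3, 8 and 12, and WT replicates 1, 2, 4, 5 and 6. This was 4 of 11 CR arrays, 4 of 13 CR-L arrays and 5 of 7 WT arrays (Fisher's exact test over 3 groups, two-sided, p = 0.27). Thresholds of -0.30 and -0.40 gave the same classes. With CR-L replicate 11 counted as low the exact p was 0.382, and with it left out 0.297.

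Within each group the levels were alike in place. In CR arrays Ldhb had a median log2 ratio of -2.29 in the low class and 0.75 in the high class. In CR-L arrays these medians were -2.14 in the low class and 0.69 in the high class. In WT arrays they were -2.53 in the low class and 0.57 in the high class, which held only 2 arrays. In each of the groups, all low arrays lay under all high arrays, which follows from the way the classes were chosen and is not a separate result.

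Slides did not separate the classes. The 8 slides held 3 or 4 arrays each, and the number of Ldhb-low arrays on a slide ran from 0 to 3 (exact test, p = 0.641). WT replicate 6, an Ldhb-low array, stood apart in brightness, with a median red intensity of 235.3. The other Ldhb-low arrays had 76 to 91.8, against 69.8 to 93.9 in the Ldhb-high arrays. The share of red spots well above background was 83.6% on WT replicate 6, between 58.6% and 65.0% on the other Ldhb-low arrays and between 57.5% and 64.4% on the Ldhb-high arrays.

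No other gene followed the split past the threshold. With dietary group in the fit, limma called 0 of 22243 other features at an adjusted p under 0.05 (0%), and the smallest adjusted p was 0.758. At an unadjusted p under 0.05 there were 1006 features (4.52%), of which 536 had lower values in the Ldhb-low arrays (2.41% of all) and 470 higher values (2.11%). The median difference over all features was -0.0040 on the log2 scale, its median size was 0.037, and 53.1% of all features were below 0 and 46.9% above. The fitted difference of Ldhb itself, for scale, was -2.90 ± 0.12 (SE). Without WT replicate 6, and without CR-L replicate 11, the count of calls was again 0, with smallest adjusted p-values of 0.903 and 0.529 by limma.

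No other feature had classes that did not overlap, 0 of 22243 (0%). The nearest was Serpinf2, the gene of the plasmin inhibitor alpha-2-antiplasmin, at chr10:62748499-62748558, which was picked out after its values were seen. Its log2 ratio ran from -0.24 to 0.048 in the Ldhb-low arrays (median -0.012) and from -0.022 to 0.56 in the Ldhb-high arrays (median 0.13). The classes overlapped by 0.070, and the difference was -0.18 ± 0.045 (SE, unadjusted p = 3.92e-04, adjusted p = 0.758, limma). A further Serpinf2 probe had a difference of -0.0041 ± 0.037.

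The features with the smallest p-values had differences far below that of Ldhb. They are named here after their values were seen, and none passed the threshold. Probe A_44_P638062, with no gene symbol, ran from 0.073 to 0.63 in the Ldhb-low arrays (median 0.24), against -0.50 to 0.38 in the Ldhb-high arrays (median 0.0052), a difference of 0.39 ± 0.081 (SE, unadjusted p = 4.00e-05, limma). Probe A_44_P778242 at chr13:87904731-87904790, also with no symbol, ran from -1.38 to 0.51 in the Ldhb-low arrays (median -1.03), against -1.21 to 1.01 in the Ldhb-high arrays (median 0.54), a difference of -1.14 ± 0.26. In both, the ranges of the classes overlapped.

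Of the 7 smallest p-values, 3 belonged to features with a gene symbol. Rasgrf1, an exchange factor for Ras, differed by -0.20 ± 0.046 (SE) and ran from -0.22 to 0.12 in the Ldhb-low arrays and from -0.15 to 0.45 in the Ldhb-high arrays. Spring1, a regulator of the sterol-sensing SREBP pathway, differed by -0.51 ± 0.13, with -0.52 to 0.21 in the Ldhb-low arrays and -0.39 to 1.03 in the Ldhb-high arrays. Gabarapl1, of the autophagy family that coats autophagosomes, differed by 0.26 ± 0.066, with -0.26 to 0.36 in the Ldhb-low arrays and -0.59 to 0.14 in the Ldhb-high arrays. All 3 overlapped between the classes, and CR-L replicate 11, between the levels for Ldhb, had -0.15, 0.0075 and 0.0039 for these genes in that order.

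The genes beside Ldhb did not share its split. Within 1 Mb of the Ldhb probe on chromosome 4, 10 features were measured, and 0 of them passed an adjusted or an unadjusted p of 0.05 by limma. The largest difference in size was 0.13, and the 95% intervals of all 10 lay between -0.27 and 0.32. The nearest feature, A_44_P261326, lay at -0.0994 Mb and differed by -0.056 ± 0.063 (SE).

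Named neighbours, listed for their position and not by the rule for named genes, gave these values. Pyroxd1, encoding an oxidoreductase, ran from -0.20 to 0.069 in the Ldhb-low arrays (median -0.060), against -0.40 to 0.083 in the Ldhb-high arrays (median -0.14), a difference of 0.076 ± 0.042 (SE). Recql, encoding a DNA helicase, ran from -0.093 to 0.21 in the Ldhb-low arrays (median 0.068), against -0.13 to 0.38 in the Ldhb-high arrays (median 0.069), a difference of 0.040 ± 0.043. Both lie at -0.136 Mb from the Ldhb probe, where a negative distance means lower coordinates, and their classes covered much the same range. Sox5, a transcription factor at 0.336 Mb, differed by 0.13 ± 0.095, with -0.079 to 0.72 in the Ldhb-low arrays and -0.39 to 0.49 in the Ldhb-high arrays.

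The remaining named neighbours within 2 Mb had differences of at most 0.26 in size. Cmas, which activates sialic acid, differed by -0.082 ± 0.092 (SE), and St8sia1, the ganglioside GD3 synthase, by -0.075 ± 0.065. C2cd5 differed by 0.020 ± 0.041 and Slco1b2, an organic anion transporter best known from liver, by 0.051 ± 0.052. Etnk1, an ethanolamine kinase, differed by 0.069 ± 0.064, and Pde3a, a phosphodiesterase, by -0.26 ± 0.21. None of these 6 had an unadjusted p under 0.05. Of the second probes of these genes, 1 of Sox5 and 1 of Etnk1 had the opposite sign.

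Wider windows gave the same count. Within 5 Mb, 47 features had a median difference of -0.0042 and a median size of 0.040, with 0 calls and 1 unadjusted p under 0.05 (limma). Within 10 Mb there were 110 features, 0 calls and 5 at an unadjusted p under 0.05. Within 20 Mb there were 232 features, 0 calls and 18 at an unadjusted p under 0.05, or 7.76% of them against 4.52% of all features. Of these 18, 10 had lower and 8 higher values in the Ldhb-low arrays, and 17 lay at lower coordinates than Ldhb, where most of the window's features are. The last feature at higher coordinates was 6.72 Mb away.

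Among these 18 were Gabarapl1 at chr4:166811168-166811227, at -13.3 Mb, and Klrd1, encoding the natural killer receptor CD94, at -13.2 Mb. Klrd1 ran from -0.55 to 0.62 in the Ldhb-low arrays (median 0.018), against -0.55 to 0.42 in the Ldhb-high arrays (median -0.11), a difference of 0.21 ± 0.092 (SE, unadjusted p = 0.0258, limma). The classes overlapped in both. Over the whole of chromosome 4, 1149 features gave 0 calls and 4.87% at an unadjusted p under 0.05, within the range of 3.01% on chromosome 16 to 6.96% on chromosome 20 over the 21 chromosomes measured.

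**Figure D2:**
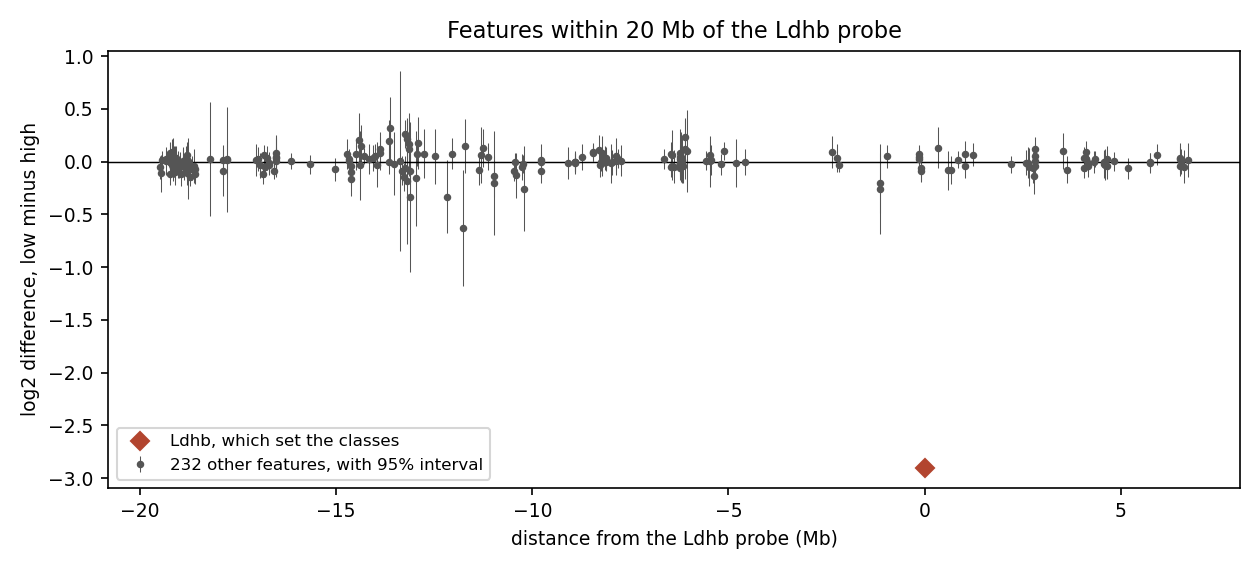
Difference in log2 ratio, Ldhb-low minus Ldhb-high, with its 95% interval for the 232 other features (points) within 20 Mb of the Ldhb probe, against distance in Mb; the diamond is Ldhb, which set the classes. Ldhb lies at -2.90 and the largest other difference in size is 0.63.

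Other genes with 2 separate levels did not split the arrays as Ldhb did. A measure chosen after the data were seen took the widest gap between neighbouring arrays in the order of levels, with at least 5 arrays on each side. It found 8 features with a gap of at least 1 on the log2 scale, 7 besides Ldhb. These 7 placed between 15 and 22 of the 31 arrays on the same side as Ldhb (low with low, high with high). On this count 31 is a full match and 0 a full match turned round. Only a feature with 13 arrays below its gap and 18 above could reach 31. Cacfd1 had 25 below and 6 above, RT1-Ba 26 and 5, and Rpl13 7 and 24. Their counts were therefore limited in advance by their own division of the arrays. Of the 7, Rpl13, Cacfd1, RT1-Bb and Slc27a2 had positions, on chromosomes 8, 3, 20 and 3. RT1-Ba, A_44_P259241 and A_44_P238939 had no position, so whether they lie on chromosome 4 is not known here. Chromosome 4 held 1149 of the 22243 other features.

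The closest match was RT1-Bb, the beta chain of a rat MHC class II molecule that presents peptides to helper T cells, at chr20:4730533-4730583. Its log2 ratio ran from -5.21 to 1.10 in the Ldhb-low arrays (median -4.08), against -5.17 to 1.63 in the Ldhb-high arrays (median -0.054). It was on its lower level in 9 of 13 Ldhb-low arrays and 5 of 18 Ldhb-high arrays, so 22 arrays split as for Ldhb and 9 did not. The difference was -2.46 ± 0.85 (SE, unadjusted p = 0.00702, adjusted p = 0.964, limma). A second RT1-Bb probe had no such gap, the widest being 0.19, and a difference of 0.43 ± 0.20 of the opposite sign.

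RT1-Ba, the alpha chain of the same molecule, ran from -2.22 to 1.93 in the Ldhb-low arrays (median -1.78), against -2.27 to 1.92 in the Ldhb-high arrays (median -1.73). It was on its lower level in 12 of 13 Ldhb-low arrays and 14 of 18 Ldhb-high arrays, and its difference was -0.68 ± 0.48 (SE, unadjusted p = 0.167, limma). Slc27a2, a very long chain acyl-CoA synthetase at chr3:114114177-114114236, ran from -3.92 to 1.82 in the Ldhb-low arrays (median -0.22), against -4.03 to 1.57 in the Ldhb-high arrays (median 0.060). It was on its lower level in 4 of 13 Ldhb-low arrays and 5 of 18 Ldhb-high arrays, with a difference of -0.59 ± 0.68 (unadjusted p = 0.396). Both genes covered both of their levels in each class, and a second Slc27a2 probe differed by -0.38 ± 0.47.

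Rpl13, a protein of the large ribosomal subunit, was on its lower level in 4 of 13 Ldhb-low arrays and 3 of 18 Ldhb-high arrays. Cacfd1, encoding a calcium channel flower domain protein, was on its lower level in 11 of 13 Ldhb-low arrays and 14 of 18 Ldhb-high arrays. The probes A_44_P259241 and A_44_P238939, with no gene symbol, were on theirs in 4 and 6 of the Ldhb-low arrays, against 5 and 7 of the Ldhb-high arrays. Their differences were -0.57 ± 0.48 (SE) for Rpl13, -0.57 ± 0.65 for Cacfd1, 0.30 ± 0.68 for A_44_P259241 and -0.27 ± 0.64 for A_44_P238939, none past an unadjusted p of 0.05 by limma. Second probes of Rpl13 and Cacfd1 had widest gaps of only 0.044 and 0.034. Ribosomal protein genes have many near-identical copies in the genome, and which copy the Rpl13 probe measured cannot be told apart here.

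**Figure D3:**
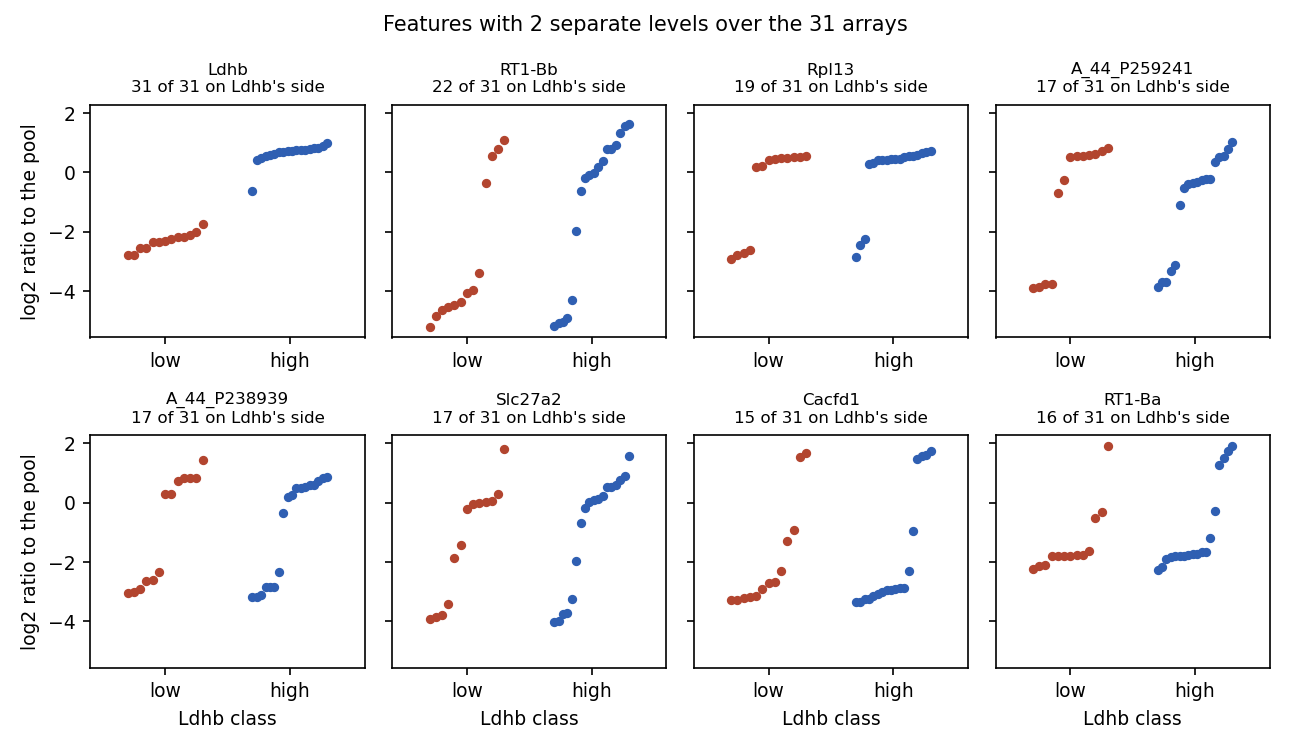
Log2 ratio to the pool on each array, Ldhb-low left and Ldhb-high right in every panel, for the 8 features with a gap of at least 1 between their levels; the title of each panel gives the number of arrays on the same side as for Ldhb. Ldhb separates the classes by the way they were chosen, RT1-Bb matches on 22 arrays, and the other 6 on 15 to 19.

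With a smaller gap, of at least 0.5, there were 39 features besides Ldhb. They placed from 10 to 22 arrays on the same side as Ldhb, with a median of 17. Of the 39, 8 had an unadjusted p under 0.05 by limma, which is 20.5% against 4.52% of all features, and none passed the threshold. Some of the 39 had no position. Of those with one, only 1 lay on chromosome 4, Hpgds, encoding hematopoietic prostaglandin D synthase, 85.4 Mb away. Hpgds was turned round, with 10 arrays on the same side as Ldhb and 21 on the opposite side, and differed by 0.63 ± 0.29 (SE, unadjusted p = 0.0377, limma). Probe A_44_P178671 on chromosome 14 was turned round in the same numbers, at 0.87 ± 0.26, and Npr2, a natriuretic peptide receptor, had 13 arrays on the same side and 0.43 ± 0.20. After RT1-Bb, the most arrays on the same side were 21, for RT1-CE3, an MHC class I gene on chromosome 20, at -0.91 ± 0.30 (unadjusted p = 0.00512), and for A_44_P833199 on chromosome 1 at -0.89 ± 0.33. The remaining 2 of the 8 were Ddah1, which breaks down methylarginines, with 20 arrays and -0.72 ± 0.34, and Lcn2 with 19 arrays. Near-identical copies of MHC genes can share probes, so RT1-CE3 is uncertain.

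The other lactate dehydrogenase genes did not follow Ldhb. Ldha, at chr1:97407674-97407733, had log2 ratios of -0.38 to 0.21 in the Ldhb-low arrays (median 0.0018), against -1.05 to 0.51 in the Ldhb-high arrays (median 0.080). Its difference was 0.021, with a 95% interval from -0.22 to 0.27 (unadjusted p = 0.861, limma). Ldhc, well above background on 21 arrays, differed by -0.035 (interval -0.20 to 0.13), and Ldhd by -0.040 (interval -0.12 to 0.045). The Ldhb difference of -2.90, given only for scale since Ldhb set the classes, lay outside all 3 intervals. The ranges of the classes overlapped for each gene.

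The lactate transporters overlapped between the classes as well. Slc16a3, which exports lactate, ran from -0.62 to 0.57 in the Ldhb-low arrays (median -0.18), against -1.12 to 0.75 in the Ldhb-high arrays (median 0.099), a difference of -0.10 ± 0.16 (SE). Slc16a7, a pyruvate and lactate carrier, ran from -0.53 to 0.20 in the Ldhb-low arrays (median 0.0061), against -0.48 to 0.26 in the Ldhb-high arrays (median -0.046), a difference of 7.73e-04 ± 0.071. Slc16a1 was not among the features tested.

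Of the list for glycolysis and lactate handling, 25 of 29 genes were measured, and 0 passed the threshold. At an unadjusted p under 0.05 (limma) there was 1 with lower and 1 with higher values in the Ldhb-low arrays, against 2.41% and 2.11% of all features, and the median difference was -0.022, beside -0.0040 over all features. Pfkl, a phosphofructokinase subunit at the committed step, ran from -0.20 to 0.090 in the Ldhb-low arrays and from -0.13 to 0.26 in the Ldhb-high arrays, a difference of -0.079 ± 0.033 (SE). Hk1, the hexokinase that phosphorylates glucose, ran from 0.047 to 0.28 in the Ldhb-low arrays and from -0.52 to 0.32 in the Ldhb-high arrays, a difference of 0.13 ± 0.058. A second Hk1 probe differed by only 0.043 ± 0.068. Eno2, an enolase, differed by 0.092 ± 0.062. All 25 intervals lay between -0.43 and 0.27.

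**Figure D4:**
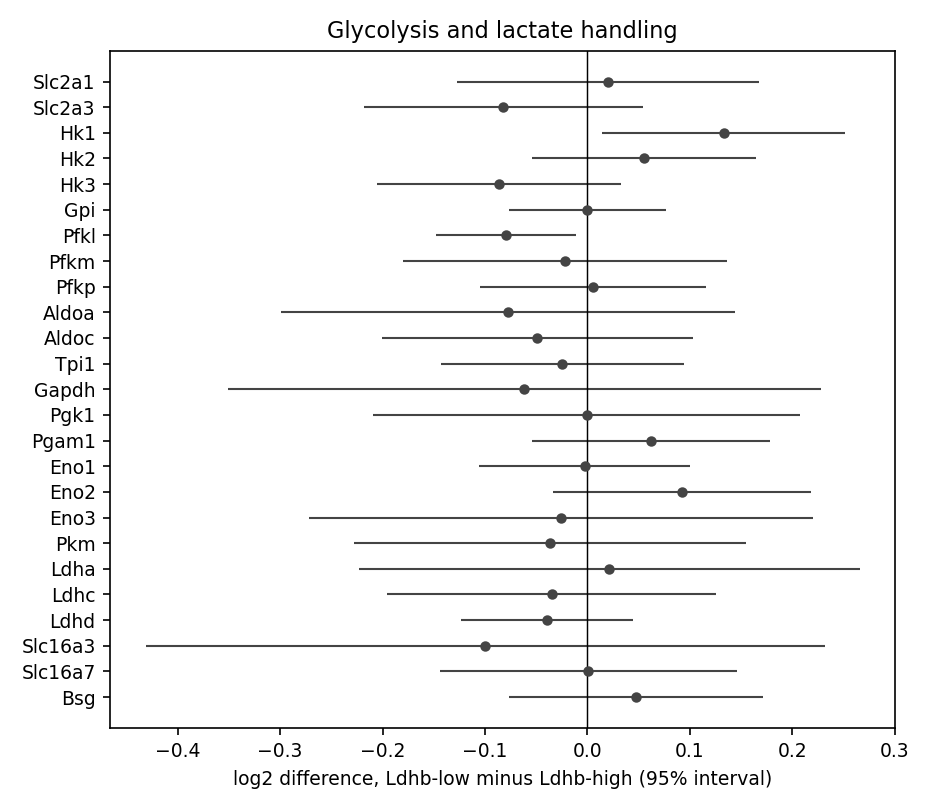
Difference in log2 ratio, Ldhb-low minus Ldhb-high (points), with its 95% interval (lines), for the 25 measured genes of glycolysis and lactate handling. The intervals lie between -0.43 and 0.27, and the intervals of Pfkl and Hk1 leave out 0 without adjustment.

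Of the genes by which pyruvate enters the mitochondrion and of the TCA cycle, 32 of 33 were measured, with 25 differences above 0 and 7 below, where 46.9% of all features were above. The median was 0.039, which was 0.0027 in the authors' deposited table. By limma 0 passed the threshold, and 3 had higher and 1 lower values at an unadjusted p under 0.05, against 2.11% and 2.41% of all features. Pdhx, which anchors the pyruvate dehydrogenase complex, ran from -0.16 to 0.18 in the Ldhb-low arrays and from -0.40 to 0.062 in the Ldhb-high arrays, a difference of 0.13 ± 0.041 (SE). Idh2, the mitochondrial NADP isocitrate dehydrogenase, differed by 0.18 ± 0.071, and Cs, citrate synthase, by -0.080 ± 0.036. The hypoxia response list had 16 of 18 genes measured, a median of -0.037 and 1 gene at an unadjusted p under 0.05. That gene was P4ha1, a collagen prolyl hydroxylase subunit, at -0.22 ± 0.067, followed by Vhl at 0.092 ± 0.047 and Epas1 at -0.17 ± 0.11.

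Markers of the blood cell types were compared as well, each list by its mean per array. All 20 measured T cell genes and 13 of 14 measured B cell genes were well above background on every array. Most features were bright as well, since 18340 of the 22244 were above it on all arrays of at least 1 class. These counts therefore do not tell which cell types were present. T cell means ran from -0.13 to 0.24 in the Ldhb-low arrays (median 0.0051), against -0.21 to 0.20 in the Ldhb-high arrays (median 0.010). B cell means ran from -0.88 to 0.37 in the Ldhb-low arrays (median 0.062), against -0.78 to 0.28 in the Ldhb-high arrays (median -0.13). The median differences of the genes were 0.044 for T cells and -0.0084 for B cells, and the classes overlapped in both lists.

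Among T cell genes, Cd8b, a chain of the CD8 coreceptor, ran from -0.63 to 0.12 in the Ldhb-low arrays (median -0.28), against -0.42 to 0.35 in the Ldhb-high arrays (median 0.051), a difference of -0.25 ± 0.080 (SE, unadjusted p = 0.00343, limma). Cd5 differed by 0.13 ± 0.070 and Il7r, the interleukin 7 receptor, by -0.14 ± 0.086. Of B cell genes, Cxcr5 differed by 0.043 ± 0.043, Fcer2 by -0.13 ± 0.16 and Cr2 by -0.081 ± 0.14. A second probe of Fcer2 had the opposite sign.

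The NK and cytotoxic list had 15 of 17 genes measured, with 13 differences above 0 (46.9% of all features) and a median of 0.12. Besides Klrd1, Ncr1, an activating receptor of natural killer cells, was at 0.25 ± 0.12 (SE) and Ccl5, a chemokine, at 0.20 ± 0.13, and 2 of the 15 had an unadjusted p under 0.05, both with higher values, against 2.11% of all features. List means ran from -0.22 to 0.43 in the Ldhb-low arrays, against -0.59 to 0.45 in the Ldhb-high arrays, which overlapped. Monocyte genes (14 of 16 measured) had a median difference of -0.059 and 0 at an unadjusted p under 0.05 by limma. Their smallest p-values belonged to Cd36 at -0.19 ± 0.12, Tlr4 at -0.073 ± 0.065 and Cx3cr1 at -0.094 ± 0.10.

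Granulocyte and erythroid genes, which mark cells that a mononuclear preparation can carry over, had the lowest medians of the 12 lists, and 7 of 11 and 19 of 21 measured genes were well above background on every array. Of 11 granulocyte genes measured (of 15), 11 had differences below 0 (53.1% of all features), and 4 had an unadjusted p under 0.05 (limma, 2.41% of all features with lower values). The median was -0.25, and it moved to -0.82 with Agilent's log ratio, -0.55 in the authors' deposited table and -0.14 with no filter on dim probes. Lcn2, encoding lipocalin 2 of neutrophil granules, ran from -0.62 to 0.046 in the Ldhb-low arrays (median -0.29), against -0.89 to 1.38 in the Ldhb-high arrays (median 0.20), a difference of -0.62 ± 0.19 (SE, unadjusted p = 0.00305). Camp, encoding cathelicidin, differed by -0.75 ± 0.27 and Ngp, a neutrophil granule protein, by -0.38 ± 0.15. The means of the list ran from -0.82 to 0.23 in the Ldhb-low arrays, against -0.85 to 1.04 in the Ldhb-high arrays.

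Of 22 erythroid genes, 21 were measured and 21 had differences below 0 (53.1% of all features), with a median of -0.34. At an unadjusted p under 0.05 there were 4 (limma), against 2.41% of all features with lower values. Kel, a blood group antigen, ran from -1.15 to 0.44 in the Ldhb-low arrays (median -0.41), against -1.23 to 1.03 in the Ldhb-high arrays (median 0.016), a difference of -0.45 ± 0.20 (SE). The 2 further Kel probes had -0.13 ± 0.074 and -0.10 ± 0.071. Hemgn differed by -0.56 ± 0.25 and Car1, carbonic anhydrase 1, by -0.22 ± 0.10. List means ran from -1.56 to 0.67 in the Ldhb-low arrays, against -1.42 to 1.19 in the Ldhb-high arrays. No gene of either list passed the threshold, and the class ranges overlapped. The part of either cell type in the Ldhb levels was not tested. A further fit took the list means of T cells, B cells, monocytes, platelets and erythroid cells as covariates, but not of granulocytes. In it, 0 other features were called (limma, 1367 at an unadjusted p under 0.05). The Ldhb difference was -2.96 there. Since Ldhb itself set the classes, this value cannot show whether cell types have a part in its levels.

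Platelet genes (12 of 16 measured) had a median difference of -0.088, and Pf4, platelet factor 4, ran from -3.29 to 0.67 in the Ldhb-low arrays and from -3.27 to 1.28 in the Ldhb-high arrays, a difference of -0.38 ± 0.40 (SE). Thbs1 differed by 0.096 ± 0.13 and Gp1ba by -0.066 ± 0.095. MHC class II genes (9 of 11 measured) had a median of -0.014, with RT1-Bb and RT1-Ba as above and RT1-DOb at -0.27 ± 0.18. Of the sex-linked genes, 2 of 6 were measured, both Y-linked. Ddx3y ran from -0.056 to 0.49 in the Ldhb-low arrays and from -0.42 to 0.46 in the Ldhb-high arrays, and Eif2s3y from -0.27 to 0.10 in the Ldhb-low arrays and from -0.45 to 0.33 in the Ldhb-high arrays. Their differences were 0.059 ± 0.066 and 0.012 ± 0.064. A second Ddx3y probe had -0.079 ± 0.053, of the opposite sign. The array names the first Ddx3y probe Ddx3, so whether it measures only the Y-linked gene is not known here. Both genes were well above background on all 31 arrays, and neither had a gap of at least 0.5 between levels, so these genes did not divide the arrays into female and male samples.

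**Figure D5:**
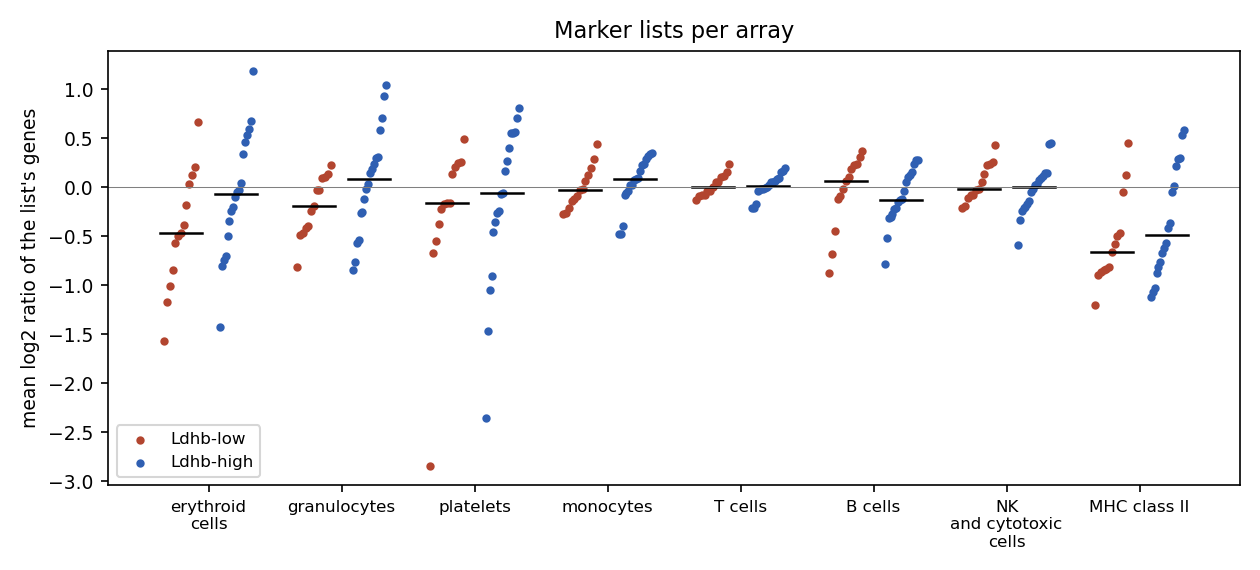
Mean log2 ratio of the measured genes of 8 marker lists on each array (points) with the median (bar), Ldhb-low left and Ldhb-high right in each pair. The classes overlap in every list, and the medians lie furthest apart for erythroid cells, at -0.47 in the Ldhb-low and -0.071 in the Ldhb-high arrays.

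The difference between the classes was also compared between the dietary groups, by the interaction of class and group. For Ldhb it was -2.96 in CR arrays, -2.78 in CR-L arrays and -3.04 in WT arrays, given as a description. Of 22243 other features, 0 passed the threshold (0%), with 880 at an unadjusted p under 0.05 and a smallest adjusted p of 0.196 by limma. That smallest value belonged to Rpl13. Its means were -0.31 in Ldhb-low and 0.51 in Ldhb-high CR arrays, -2.03 in Ldhb-low and 0.19 in Ldhb-high CR-L arrays, and 0.44 in Ldhb-low and -2.65 in Ldhb-high WT arrays. Leaving out CR replicate 9, CR-L replicate 3 or CR-L replicate 9 brought its adjusted p to 0.00691, 0.00235 and 0.00565. Each of these arrays was on the other Rpl13 level from the rest of its dietary group and class. No other array left out made Rpl13 pass the threshold, and a second Rpl13 probe had a widest gap of only 0.044. Leaving out WT replicate 3 called 13 other features and not Rpl13, with WT replicate 7 as the only Ldhb-high WT array.

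Because the low class was more common in WT arrays, the dietary comparisons were fitted with and without the class. With diet alone, CR minus WT called 104 of 22244 features (0.468%) and CR-L minus WT 789 (3.55%). With the Ldhb class in the fit, these were 50 (0.225%) and 462 (2.08%), of which 47 and 440 had been called without it. Both comparisons share the WT arrays. Between dietary groups, Ldhb differed by 1.26 ± 0.66 for CR minus WT and by 1.33 ± 0.64 for CR-L minus WT (SE, diet alone). Ldhb was not among the features called in either. With separate levels, these means follow the share of Ldhb-low arrays, which was 5 of 7 WT, 4 of 11 CR and 4 of 13 CR-L arrays.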

How the data were processed

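Agilent 2-colour arrays of 31 PBMC samples were grouped by their titles. Per the file headers, the authors deposited spot intensity and local background intensity from Agilent's scanner software (Feature Extraction 10.7.3.1, as the submitters' processing notes name it) with its log10 ratio of red over green and probe positions on rn4. A deposited table of the whole series holds log2 values, made by the authors with a normalization that the sources used here do not give, which tracked log2 red intensity (lowest correlation 0.993 over probes, median 8.17 on every array). Direction follows the labels' dyes.

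The deposited log10 ratio set the classes. From the intensities, limma 3.58.1 (R 4.3.3) computed normexp (offset 50) and within-array loess log2 ratios. Control and outlier spots (0.408%) were left out, spots of a probe averaged, and probes kept whose red signal passed Agilent's background call on 7 or more arrays (26716 of 41012). The brightest probe stood for a symbol, taken from RefSeq names (GRCr8, names only), which left 22244 features with 0.0334% of values missing. Classes were compared with lmFit and eBayes, dietary group in the fit, two-sided, Benjamini-Hochberg over all features but Ldhb. The steps were tested on simulated data. The number of arrays limits the precision.

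Members, lists and tests were chosen with earlier results of these data known. The rule for named genes took those past the threshold, or with separate classes (none of either), up to 3 genes of smallest p per list, and Ldha, Ldhc, Ldhd, Slc16a1, Slc16a3, Slc16a7, Slc27a2 and RT1-Ba. Neighbours, genes of smallest p over all features, features with separate levels and other glycolysis genes drawn were added after values were seen. Of 26 further probes of named genes, 6 had the opposite sign. No labels say whether samples of a group came from separate litters.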

Additional observations from a re-analysis of the deposited data

Results flagged for a closer look

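Within dietary group and class, 35 sets of 4, 5, 7 or 9 arrays were looked at for 1 array far from the others (Ldhb, Ldha, Ldhc, Ldhd, Slc16a3, Slc16a7 and Rpl13), and 6 had one. Such a search flags about 1 in 20 sets by chance where all values share 1 level. That rate does not hold for Ldhb, which set the classes, or for Rpl13, picked after its values were seen. The 6 of 35 can therefore not be set against it. For Ldhb, CR-L replicate 11 had a log2 ratio of -0.62, against 0.49 to 0.99 in the other 8 Ldhb-high CR-L arrays. For Slc16a3, WT replicate 5 had -0.37, against 0.43 to 0.55 in the other 4 Ldhb-low WT arrays. The remaining 4 were of Rpl13, which has 2 separate levels of its own. CR replicate 9 had -2.72, against 0.43 to 0.56 in the other 3 Ldhb-low CR arrays. CR-L replicate 3 had 0.21, against -2.90 to -2.62 in the other 3 Ldhb-low CR-L arrays, and CR-L replicate 9 had -2.25, against 0.33 to 0.72 in the other 8 Ldhb-high CR-L arrays. WT replicate 4 had 0.19, against 0.46 to 0.54 in the other 4 Ldhb-low WT arrays, on the same level as these.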

How the results depend on the processing

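The count of 0 calls outside Ldhb held under all 15 other settings run and with each of the 31 arrays left out. It held within 5 Mb of Ldhb as well as over all features. The other Ldhb thresholds gave the same classes, so they repeat the main setting and could not have differed. No setting that changed the values or the classes gave another feature with separate classes. Settings that changed only the fit could not alter this, since overlap depends on the values and the classes alone. Smallest adjusted p-values ran from 0.121 (Agilent's log ratio) to 1, and from 0.208 to 1 without each array, with 746 to 1486 features at an unadjusted p under 0.05. The Ldhb difference ran from -3.13 to -2.82, and from -2.97 to -2.84 without each array, which is largely set by the choice of the classes on Ldhb. The exact p of class by diet ran from 0.118 to 0.356 without each array. The interaction could not be fitted without dietary group or with Ldhb as a continuous covariate. The interaction count was 1 with the replicate block (Rpl13), 2 with cell type list means in the fit (Rpl13 and Anapc15, adjusted p 0.0245 for both), and 0 to 13 without each array. Adding the Ldhb class took the dietary calls to 50 for CR minus WT, against 104 without it, and to 462 for CR-L minus WT, against 789. The cause was not tested. Of the list medians, B cells turned sign in 13 of 44 settings and MHC class II in 12, and the other 10 lists in at most 2. Erythroid cells ran from -0.57 to 0.00035, the last with their own mean as a covariate. Of the other 88 features followed, none was called in any setting. Signs turned in 37 of 1136 values over other settings in 62 of 2728 without each array and in 47 of 264 within 1 dietary group alone.

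Replicate numbers showed little pairing by correlation: 7 of 25 same-numbered pairs had a correlation over 0.1 (-0.43 to 0.45), and 3 of 29 arrays correlated best with their own number. The share among pairs of different numbers is not given here, and whether same-numbered samples share a litter was not tested. With the replicate block, 0 features were called (870 at an unadjusted p under 0.05, limma), and the Ldhb difference was -3.11. Limits: Ldhb rests on 1 probe, 2 of 7 WT arrays are Ldhb-high, and litter and sex are not known per array.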

Other observations

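CR-L replicate 11 lay between the levels of some other features besides Ldhb, but not of all. Over all 22244 features, there were 5 cases, in 4 features, of an array at least 0.5 on the log2 scale from its neighbours on both sides, with at least 5 arrays on each side, a measure chosen after the data were seen. Of these, 4 were this array. It had -0.62 for Ldhb, between -1.73 and 0.42, and -1.97 for RT1-Bb, between -3.40 and -0.62. For probe A_44_P238939 it had -0.35, between -2.34 and 0.21, and for Rpl30l3 -0.67, between -1.18 and 0.23. The fifth case was CR replicate 6 for RT1-Bb, at -3.40. For Rpl13, Cacfd1, RT1-Ba and Slc27a2, also with separate levels, CR-L replicate 11 lay on a level, at 0.54, -2.86, -1.74 and 0.77.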
